A study of Mus musculus with 8 samples.

Results

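The 52 genes described here build, branch, cut, cap and cross-link actin filaments in neutrophils, tie them to the membrane and pull on them: the cytoplasmic actins, the proteins that hold actin monomers, the Arp2/3 complex and its activators, formins, severing and capping proteins, bundlers, membrane linkers, myosins, and a set of signalling genes that steer them. They were chosen by name from what they are known to do, but with earlier results of these data already known. Each was found among the 23369 genes of the deposited count table. All 52 passed the filter on low counts, as did 12610 genes in all. Neutrophils were sorted from spinal cords of C57BL/6N mice in which experimental autoimmune encephalomyelitis (EAE) had been induced; in this mouse model of multiple sclerosis, immune cells attack myelin and enter the brain and spinal cord. Cells were gated as CD45+ CD11b+ Ly6G+, and RNA was amplified with an oligo-dT-primed full-length cDNA kit before single-end sequencing. Both groups are EAE mice and differ in time of day: 4 libraries were taken at zeitgeber time 13 (ZT13, counted in hours from lights on and by the usual convention early in the dark phase, when mice are active) and 4 at zeitgeber time 1 (ZT1, early in the light phase). Mice without EAE were not used here, so the values describe inflamed tissue at both times. All libraries carry the same batch label. The sources used here do not give the stage of disease, the lighting schedule, or the age and sex of the mice. The labels carry no animal identifiers; each library was taken as 1 mouse because cell yields are given per mouse. If libraries share mice, the p-values measure only the spread between these libraries.

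A crawling neutrophil moves by growing an actin network at its front and contracting an actomyosin network at its rear. Thymosins and profilin keep a large pool of actin monomers ready for use, WASP and WAVE proteins switch on the Arp2/3 complex so that new filaments branch from old ones, and capping proteins keep the branches short. Cofilin and its helpers take old filaments apart and return monomers to the pool, while RhoA and its kinases drive myosin II at the back. Many of these genes are known targets of serum response factor (SRF), whose cofactors MRTF-A and MRTF-B bind free actin monomers and enter the nucleus when that pool shrinks.

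The 8 libraries held between 46152067 and 67873023 counts, and levels are given in CPM, a library's counts scaled to a common library size, in which 3 counts came to between 0.0442 and 0.065 CPM. The ZT13 libraries detected between 13945 and 15751 genes, fewer than the ZT1 libraries with between 15760 and 17701, and their 10 highest genes took 21.4% to 24.5% of counts at ZT13, against 17.9% to 20.3% at ZT1. The 13 neutrophil markers summed to between 172300 and 221200 CPM at ZT13 and between 134100 and 170400 CPM at ZT1, with no overlap. That sum is carried by a few abundant genes such as S100a8, S100a9 and Ngp, and each of the 13 markers overlapped between the groups when taken singly. S100a8 stood at 29420 to 50430 CPM at ZT13 and 19540 to 31450 CPM at ZT1. Ngp stood at 37730 to 51230 CPM at ZT13 and 30950 to 39010 CPM at ZT1. Directions differed as well. Csf3r ran lower, at 1407 to 1719 CPM at ZT13 and 1593 to 2083 CPM at ZT1. Ptprc stood at 1526 to 1650 CPM at ZT13 and 1602 to 1916 CPM at ZT1. The 11 monocyte and macrophage markers summed to 2074 to 2773 CPM at ZT13 and 2010 to 2700 CPM at ZT1, and the 6 microglia markers to 103 to 184 CPM at ZT13 and 113 to 148 CPM at ZT1. Both lists overlapped between the groups, and so did the markers of smooth muscle, pericytes and fibroblasts, at 22.6 to 28.1 CPM at ZT13 and 14.6 to 25.0 CPM at ZT1, with Rgs5 at 0 in all 8 libraries and Myh11 at 0 in all but ZT1 replicate 3 (0.0168 CPM). B cell markers were sparse, at 2.77 to 5.28 CPM at ZT13 and 1.64 to 2.28 CPM at ZT1, without overlap. Summed markers of T and NK cells, platelets, erythroid cells, eosinophils and mast cells, endothelium, oligodendrocytes, astrocytes and neurons overlapped between the groups; oligodendrocyte markers were the most abundant of these, at 139 to 249 CPM at ZT13 and 141 to 203 CPM at ZT1. The part of these marker and detection differences in the values below was not tested. In bulk libraries such as these, fewer cells of a type and less RNA per cell cannot be told apart.

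Several members are near-copies of one another, and how far their reads can be told apart depends on sequence. The stretches below come from the GENCODE M21 transcripts on GRCm38, read from the start codon, with the bases that differ between the partners in capitals. They are shown because the thymosins and the light chains are among the members with the smallest p-values. The actins are shown because Actb is among the most abundant members. The thymosin coding sequences are 132 bases long and differ at 40 of them (69.7% identity), with no identical run of 50 bases, the length of a window taken here for a read.
Tmsb10: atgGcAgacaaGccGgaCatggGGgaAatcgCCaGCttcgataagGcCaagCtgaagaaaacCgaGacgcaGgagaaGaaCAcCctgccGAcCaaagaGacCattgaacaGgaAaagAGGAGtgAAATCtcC
Tmsb4x: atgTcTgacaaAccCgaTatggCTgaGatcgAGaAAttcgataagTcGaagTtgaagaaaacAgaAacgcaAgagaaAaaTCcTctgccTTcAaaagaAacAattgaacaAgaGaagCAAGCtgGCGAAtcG
The regulatory light chain genes lie side by side on chromosome 17. Their 516 coding bases differ at 18 positions (96.5% identity) and hold an identical run of 102 bases, and the first 60 bases differ at 4.
Myl12b: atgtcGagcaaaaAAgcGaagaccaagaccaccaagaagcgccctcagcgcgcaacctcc
Myl12a: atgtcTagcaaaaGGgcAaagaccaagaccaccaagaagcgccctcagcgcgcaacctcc
The 1125 coding bases of the actins differ at 128 positions (88.6% identity, longest identical run 62 bases), of which 9 fall in the first 60.
Actg1: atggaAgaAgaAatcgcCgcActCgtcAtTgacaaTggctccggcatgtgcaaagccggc
Actb: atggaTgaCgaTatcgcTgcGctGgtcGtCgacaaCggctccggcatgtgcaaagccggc
Over whole genes, 11 of the 52 members shared more than 10% of their 50-base exon windows with other annotated genes. Shares are over all other genes together, and the gene named is the most frequent partner. The largest were 64.5% for Capza1 (Gm3608), 37.4% for Actg1 (Gm12715), 27.0% for Tmsb10 (Gm9844) and 26.3% for Actr3 (Gm8822). Of the members with the smallest p-values, Vcl shared 25.1% (Ap3m1) and Cfl1 18.3% (Snx32). Another 15 members, among them Arpc3, Tmsb4x, Capg, Pfn1, Gsn and Coro1a, shared none. The sources used here do not say how the authors' counting placed reads that fit several genes, so the values of the members with shared windows are uncertain to that extent.

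Promoter windows were read for the element that SRF binds, the CArG box, because several of these genes are known SRF targets. RefSeq windows on GRCm38.p6, from 250 bases before to 50 bases after the start of each gene, existed for 48 members, all but Actb, Coro1b, Diaph1 and Rock1. A CArG box, searched on both strands, stood in 4 of the 48 (8.33%), against 488 of the 27025 genes with a window (1.81%). The 60 bases that hold each box follow, in the direction of the gene, with the box in capitals.
Myl6 (chr10:128493025-128493084, minus strand): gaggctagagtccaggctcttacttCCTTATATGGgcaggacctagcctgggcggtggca
Actg1 (chr11:120348551-120348610, minus strand): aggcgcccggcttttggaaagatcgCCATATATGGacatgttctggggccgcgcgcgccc
Vcl (chr14:20929148-20929207, plus strand): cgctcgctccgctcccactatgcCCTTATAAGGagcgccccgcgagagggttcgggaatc
Arpc4 (chr6:113377863-113377922, plus strand): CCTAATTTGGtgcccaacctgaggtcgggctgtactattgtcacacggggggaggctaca
The box begins 50 bases before the start of Myl6, 90 before that of Actg1, 227 before that of Vcl and 250 before that of Arpc4. A match describes the letters of a window and says nothing of binding in these cells. The 4 genes did not share a direction: the log2 fold change of ZT13 over ZT1 was 0.46 for Myl6, 0.06 for Arpc4, -0.23 for Actg1 and -0.27 for Vcl.

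The comparison of ZT13 with ZT1 asks whether the motility machinery of neutrophils in the inflamed spinal cord is expressed differently at these times of day. No member passed the threshold of 0.05 in edgeR's quasi-likelihood test with Benjamini-Hochberg adjustment over all 12610 genes. Of the 52, 10 (19.2%) had an unadjusted p under 0.05, against 9.2% of all genes tested: Arpc3, Tmsb10, Cfl1, Tmsb4x, Capg, Myl12a, Myl12b and Myl6 had higher values at ZT13, and Vcl and Wdr1 had lower values. The 8 with higher values made 15.4% of the members, against 4.35% of all genes, and the 2 with lower values 3.85%, against 4.85%. These 8 include monomer-binding proteins, an Arp2/3 subunit, cofilin, a capping protein and the myosin II light chains. Most members averaged 100 CPM or more, but only 1545 of the 12610 genes did. Among protein-coding genes at that level, 24.4% of those under 600 coding bases were higher with an unadjusted p under 0.05 and 3.35% lower. The shares were 11.5% and 8.40% at 600 to 1200 bases, 1.88% and 13.7% at 1200 to 2400, and 1.18% and 16.1% at 2400 or more. The shares over all genes therefore do not describe genes at the members' levels.

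Across the list, 27 members were higher and 25 lower at ZT13 (51.9% higher, against 47.7% of all genes), with a median log2 fold change of 0.02, against -0.02 for all genes. The smallest adjusted p among the members was 0.396, and the smallest over all genes 0.246, so edgeR called 0.0% of the genes tested, and limma-voom called none. DESeq2 called 118 of the 12553 genes it adjusted (0.94%), and with them 2 members (3.85%), Arpc3 (adjusted p 0.0429) and Tmsb10 (adjusted p 0.0475). Under edgeR and limma alternatives the adjusted p of Arpc3 ran between 0.143 and 0.731 and that of Tmsb10 between 0.13 and 0.753. The interval of the fold change bounds how large a difference could be: for 40 of the 52 members the 95% interval lay within a 1.5-fold change in either direction, and for 51 within a 2-fold change, the exception being Limk1.

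In 5 members (9.62%) the 4 ZT13 libraries did not overlap the 4 ZT1 libraries, against 5.66% of all genes. Arpc3, Cfl1, Myl12a and Myl12b were higher in every ZT13 library (7.69% of the members, against 2.66% of all genes). Actr3 was lower in every ZT13 library, by a margin of under 1 CPM (1.92% of the members, against 3.0% of all genes). The split between higher and lower at unadjusted p under 0.05 depended on scaling: it was 8 to 2 with TMM factors, 10 to 1 with upper-quartile factors, 8 to 1 with DESeq2 size factors and 9 to 7 with library totals alone. The split without overlap was 4 to 1 with TMM factors, 5 to 0 with upper-quartile factors, 4 to 0 with DESeq2 size factors, where Actr3 overlapped, and 7 to 3 with library totals. With TMM factors, upper-quartile factors, DESeq2 size factors and library totals in turn, 9.20%, 9.38%, 9.33% and 9.79% of all genes had such a p. In the same order, 5.66%, 5.88%, 5.9% and 6.33% of all genes did not overlap. Single libraries moved the counts of members as well. Without ZT1 replicate 1, the number at unadjusted p under 0.05 was 5, without ZT1 replicate 4 it was 5, and without ZT13 replicate 4 it was 6, where 6.00%, 6.04% and 9.04% of all genes had such a p. The number of members without overlap was 12 without ZT1 replicate 3, 10 without ZT13 replicate 3 and 8 without ZT13 replicate 2, where 13.4%, 10.4% and 10.8% of all genes did not overlap.

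**Figure D1:**
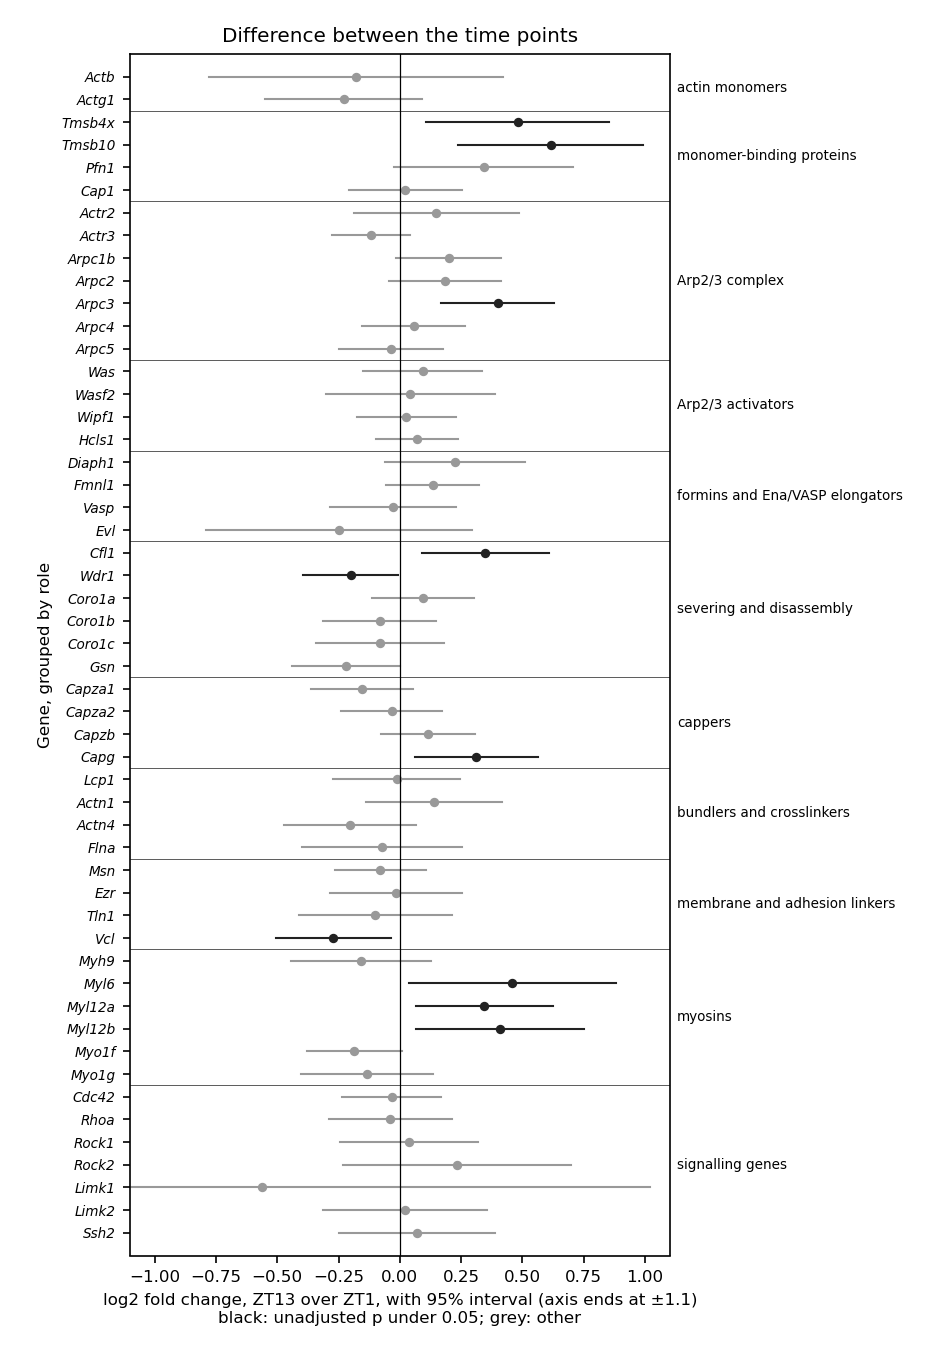
Log2 fold change of ZT13 over ZT1 for each of the 52 members, grouped by role, with its 95% interval from edgeR (n = 4 libraries each). The 10 members at unadjusted p under 0.05 are dark and the others grey; 8 of the dark points lie right of 0 and 2 left of it, and the interval of Limk1 runs beyond the axis.

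The actin genes did not differ between the times beyond their spread. Actb, which encodes β-actin, measured 7986, 8124, 6297 and 6376 CPM in ZT13 replicates 1 to 4, against 5784, 9209, 12737 and 4887 CPM in ZT1 replicates 1 to 4. The ZT1 libraries enclosed all ZT13 libraries, with a coefficient of variation of 13.8% at ZT13 and 43.9% at ZT1. The log2 fold change was -0.18 ± 0.27 (SE; 95% interval -0.78 to 0.42; adjusted p 0.899). It turned to 0.12 ± 0.21 without ZT1 replicate 3, so that its sign rests on that library. Actg1, the gene of γ-actin, measured 1174, 972, 1013 and 1152 CPM at ZT13, against 1074, 1347, 1599 and 1035 CPM at ZT1 (log2 fold change -0.23 ± 0.14, adjusted p 0.694). Both actins were highest in ZT1 replicate 3, followed by ZT1 replicate 2, and the actins together took 0.813% ± 0.125 of counts at ZT13 and 0.943% ± 0.321 at ZT1 (SD, n = 4 each).

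All 4 genes of monomer-binding proteins had positive log2 fold changes, and 2 of them an unadjusted p under 0.05. Cap1 turned negative in 3 of the 18 alternatives tried, among them library totals (-0.03). Tmsb4x encodes thymosin β4, the main sequestering protein for actin monomers in white blood cells. It measured 9200.4, 9981, 10859 and 10602 CPM at ZT13, against 5509, 7453, 9938 and 6210.3 CPM at ZT1. The means were 10160.5 ± 739 CPM at ZT13 and 7278 ± 1947 CPM at ZT1 (SD, n = 4 each). Of the ZT1 libraries, replicate 3 reached into the ZT13 range and the other three lay below it. The log2 fold change was 0.48 ± 0.17 (95% interval 0.11 to 0.85, unadjusted p 0.0166, adjusted p 0.491 in edgeR). Tmsb10, for the related thymosin β10, measured 117, 150.3, 152 and 178 CPM at ZT13, against 79.2, 96.7, 126 and 87.0 CPM at ZT1, and had the largest positive log2 fold change of the 52 members, 0.61 ± 0.17 (95% interval 0.24 to 0.99, unadjusted p 0.00473, adjusted p 0.403). Its groups overlapped in 1 library on each side, ZT13 replicate 1 at 117 CPM lying below ZT1 replicate 3 at 126 CPM. Pfn1 encodes profilin, which recharges monomers with ATP and hands them to growing filament ends. It measured 2581, 2764, 3353 and 2959 CPM at ZT13, against 1894, 2331, 3097 and 1876 CPM at ZT1 (log2 fold change 0.34 ± 0.16, adjusted p 0.569). Cap1, whose product works with cofilin to recycle monomers, ranged over 186 to 246 CPM at ZT13 and 191 to 216 CPM at ZT1 (log2 fold change 0.02 ± 0.10). The monomer-binding genes together took 1.31% ± 0.0620 of counts at ZT13 and 0.997% ± 0.187 at ZT1, where replicate 3 held 1.26% and the other three between 0.835% and 1.00%.

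The Arp2/3 complex starts a new filament on the side of an existing one. Of its 7 subunit genes 5 had positive log2 fold changes and 2 negative ones, and 1, Arpc3, an unadjusted p under 0.05. Arpc3, a small structural subunit (chr5:122391878-122414184, plus strand, GENCODE M21 on GRCm38), had the smallest p of the 52 members. It measured 470.2, 406, 492 and 517 CPM at ZT13, against 329.6, 377, 397 and 327 CPM at ZT1. Each ZT13 library lay above each ZT1 library, and the means were 471 ± 47.9 CPM at ZT13 and 358 ± 34.9 CPM at ZT1 (SD, n = 4 each). The log2 fold change was 0.40 ± 0.10 (95% interval 0.17 to 0.63, unadjusted p 0.00337, adjusted p 0.396), and under the 18 alternatives tried it lay between 0.34 and 0.46. The actin-related proteins that form the first step of the branch had log2 fold changes of opposite sign. Actr3 measured 1495, 1467, 1588 and 1598 CPM at ZT13, against 1598, 1745, 1679.5 and 1643 CPM at ZT1 (log2 fold change -0.12 ± 0.07, adjusted p 0.685). Actr2 measured 471, 425, 512 and 500.4 CPM at ZT13, against 513, 336, 360.2 and 514 CPM at ZT1, where replicates 2 and 3 stood well below replicates 1 and 4 (log2 fold change 0.15 ± 0.15, adjusted p 0.833). The log2 fold changes of the remaining subunits were 0.20 ± 0.10 for Arpc1b, 0.18 ± 0.10 for Arpc2, 0.06 ± 0.09 for Arpc4 and -0.04 ± 0.09 for Arpc5, with adjusted p of 0.571 or more. As a whole the 7 subunits took 0.859% ± 0.0312 of counts at ZT13 and 0.840% ± 0.0199 at ZT1, a difference smaller than the spread of the ZT13 libraries.

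None of the genes that switch on branching or lengthen filaments had an unadjusted p under 0.05. Was, Wasf2, Wipf1 and Hcls1 encode WASP, WAVE2, the WASP-binding partner WIP and the cortactin relative HS1. Their log2 fold changes lay between 0.03 and 0.09, with adjusted p of 0.842 or more. Wasf2 turned negative in 4 and Wipf1 in 2 of the 18 alternatives, among them library totals (-0.01 and -0.03). Of the filament elongators, the formin genes Diaph1 and Fmnl1 had log2 fold changes of 0.23 ± 0.13 and 0.13 ± 0.09, and the Ena/VASP genes Vasp and Evl of -0.03 ± 0.11 and -0.25 ± 0.24. Evl was the most variable of the 4 at ZT13, with 8.08 to 16.0 CPM at ZT13 and 11.6 to 14.6 CPM at ZT1, and no elongator had an adjusted p under 0.643.

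Genes for disassembly pointed in both directions. Cfl1 encodes cofilin, which severs old filaments. It measured 1361, 1343, 1430.5 and 1427 CPM at ZT13, against 948, 1188, 1302 and 928 CPM at ZT1. All ZT13 libraries lay above all ZT1 libraries and within a narrow range, with means of 1390.2 ± 45.1 CPM at ZT13 and 1092 ± 184 CPM at ZT1 (SD, n = 4 each). The log2 fold change was 0.35 ± 0.12 (95% interval 0.09 to 0.61, unadjusted p 0.0134, adjusted p 0.491). Wdr1 encodes AIP1, the cofactor that speeds cofilin-driven disassembly, and differed in the opposite direction. It measured 998, 976, 1174 and 1065 CPM at ZT13, against 1168, 1326, 1155 and 1193 CPM at ZT1, so that ZT13 replicate 3 entered the ZT1 range (log2 fold change -0.20 ± 0.09, unadjusted p 0.0439, adjusted p 0.531). Gsn, for gelsolin, a calcium-dependent severing and capping protein, measured 1160.1, 1209.9, 1366 and 1084 CPM at ZT13, against 1267, 1416, 1358 and 1572 CPM at ZT1 (log2 fold change -0.22 ± 0.10, unadjusted p 0.0503, adjusted p 0.542). Its groups overlapped through ZT13 replicate 3, the highest of its group. Coro1a, the coronin of blood cells, measured 3159.9, 3043, 3195 and 3014 CPM at ZT13, against 2584, 3119.6, 3270.0 and 2663 CPM at ZT1 (log2 fold change 0.09 ± 0.09). The log2 fold changes of Coro1b and Coro1c were -0.08 ± 0.10 and -0.08 ± 0.12.

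Among the capping proteins, only Capg had an unadjusted p under 0.05. Capg, which caps filament ends without severing them, measured 619, 620.3, 706 and 728 CPM at ZT13, against 454, 565, 627 and 508 CPM at ZT1. The ZT13 replicates 1 and 2 lay just below ZT1 replicate 3 and above the other three ZT1 libraries (log2 fold change 0.31 ± 0.11, unadjusted p 0.0201, adjusted p 0.491). The subunits of the capping protein heterodimer had log2 fold changes of -0.16 ± 0.09 for Capza1, -0.03 ± 0.09 for Capza2 and 0.11 ± 0.09 for Capzb. The bundlers and crosslinkers Lcp1, Actn1, Actn4 and Flna had adjusted p of 0.672 or more. Lcp1, for the leukocyte bundling protein L-plastin, was the most abundant of them by count, with 5732, 6227, 7788 and 7613 CPM at ZT13, against 6193, 6978, 7056 and 7397 CPM at ZT1 (log2 fold change -0.01 ± 0.12).

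Genes that tie actin to the membrane and to integrins all had negative log2 fold changes in the fit of all libraries, and 1 of the 4 an unadjusted p under 0.05. Of the 18 alternatives tried, Ezr was positive in 6 and Tln1 in 3, while Vcl and Msn were negative in all 18. Vcl encodes vinculin, which strengthens the link between integrin adhesions and actin under load. It measured 153, 132, 168 and 126 CPM at ZT13, against 182, 178, 165 and 174 CPM at ZT1. The means were 145 ± 19.3 CPM at ZT13 and 175 ± 7.30 CPM at ZT1 (SD, n = 4 each), and only ZT13 replicate 3 entered the ZT1 range. The log2 fold change was -0.27 ± 0.11 (95% interval -0.51 to -0.04, unadjusted p 0.0282, adjusted p 0.504). Tln1, for talin, which activates integrins, had a log2 fold change of -0.10 ± 0.14, and the membrane linkers Ezr (ezrin) and Msn (moesin) of -0.02 ± 0.12 and -0.08 ± 0.08.

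The light chain genes of myosin II had positive log2 fold changes, each with an unadjusted p under 0.05, and the heavy chain gene a negative one with an interval that includes 0; the difference between the chains was not tested. Myl6, the essential light chain, measured 411, 415, 450.1 and 427 CPM at ZT13, against 242, 304, 455 and 237 CPM at ZT1 (log2 fold change 0.46 ± 0.19, unadjusted p 0.0365, adjusted p 0.519). ZT1 replicate 3 was the highest of all 8 libraries, while the other three ZT1 libraries lay below all ZT13 libraries. Myl12a, a regulatory light chain, measured 213, 204, 203 and 203 CPM at ZT13, against 135, 172, 199.7 and 142 CPM at ZT1 (log2 fold change 0.34 ± 0.12, unadjusted p 0.0203, adjusted p 0.491). Myl12b, its near-copy, measured 28.9, 26.3, 24.1 and 26.6 CPM at ZT13, against 16.0, 21.2, 22.9 and 19.6 CPM at ZT1 (log2 fold change 0.41 ± 0.15, unadjusted p 0.0239, adjusted p 0.494). Both regulatory light chains were higher in every ZT13 library than in any ZT1 library. Of their 50-base windows, 21.1% for Myl12a and 19.1% for Myl12b are shared with another annotated gene, most often with each other, so their values are not fully separate measurements. The heavy chain gene Myh9 ranged over 450.0 to 479.8 CPM at ZT13 and 393 to 605 CPM at ZT1, with a log2 fold change of -0.16 ± 0.13 (95% interval -0.44 to 0.13, adjusted p 0.787). Myo1f, a class I myosin of blood cells, measured 1410.4, 1399, 1644 and 1392 CPM at ZT13, against 1602, 1585, 1635 and 1826 CPM at ZT1 (log2 fold change -0.19 ± 0.09, unadjusted p 0.0587, adjusted p 0.558). Of its ZT13 libraries, 3 lay below all ZT1 libraries and replicate 3 did not. Its relative Myo1g had a log2 fold change of -0.13 ± 0.12.

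The signalling members are given one by one. Cdc42 and Rhoa, which organise the front and the rear of the cell, had log2 fold changes of -0.03 ± 0.09 and -0.04 ± 0.11. Rock1 and Rock2, whose products are kinases that raise myosin II activity, had log2 fold changes of 0.04 ± 0.13 and 0.23 ± 0.21. Limk1 and Limk2 encode kinases that switch cofilin off, and Ssh2 a phosphatase that switches it on again. Limk1 was the least abundant member, at 7.47, 1.43, 0.382 and 4.51 CPM at ZT13, against 5.51, 4.96, 3.96 and 5.92 CPM at ZT1, and its interval of -2.14 to 1.02 on the log2 scale spans large changes either way. Limk2 and Ssh2 had log2 fold changes of 0.02 ± 0.15 and 0.07 ± 0.14, with adjusted p of 0.982 and 0.938.

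**Figure D2:**
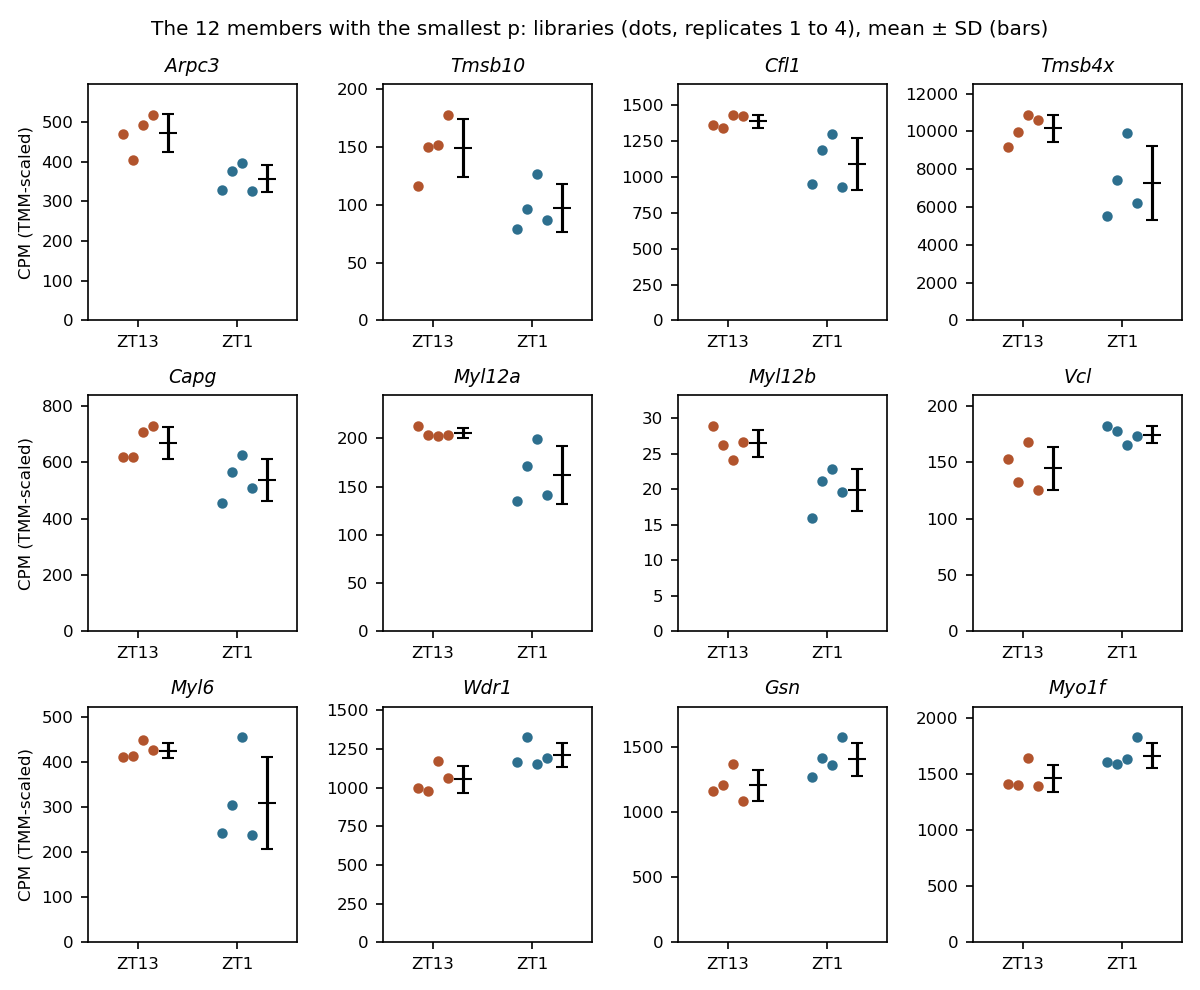
TMM-scaled CPM of the 12 members with the smallest p, by library (points, replicates 1 to 4 from left) with the group mean ± SD beside them, ZT13 left and ZT1 right in each panel, on linear axes from 0. Arpc3, Cfl1, Myl12a and Myl12b show no overlap between the groups, and in Tmsb4x, Tmsb10, Capg and Myl6 ZT1 replicate 3 reaches into the ZT13 range.

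Levels were compared between genes on the TPM scale, computed here from the counts per kilobase of annotated exon over all 22231 genes with a length. On this scale 12 of the 52 members stood among the 100 most abundant genes of the cells. Tmsb4x had the highest per-length level of the list, 13904 ± 1744 TPM (SD over 8 libraries; rank 7 of all genes). Actb followed with 6341 ± 1816 (rank 11). Coro1a, with 2408 ± 182, and Pfn1, with 2378 ± 213, did not differ beyond their spread. Limk1 lay at the other end, with a per-length level of 1.39 ± 0.822 (rank 9492). By counts, the 52 members together took 5.82% ± 0.0443 of each library at ZT13 and 5.76% ± 0.439 at ZT1 (SD, n = 4 each). The ZT13 libraries held between 5.79% and 5.89%, and the ZT1 libraries 5.37%, 5.79%, 6.36% and 5.51% in replicates 1 to 4.

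The ZT1 libraries differed among themselves in a shared pattern across members. ZT1 replicate 3 was the highest ZT1 library in 28 of the 52 members (53.9%), against 39.4% of the 1545 genes that averaged 100 CPM or more. It was also the highest ZT1 library in all 8 members that had higher values at ZT13 with an unadjusted p under 0.05. In Actr2 and Rock2 the order was the other way round: Rock2 measured 51.9, 47.6, 41.7 and 59.1 CPM at ZT13, against 53.7, 33.8, 30.5 and 52.5 CPM at ZT1, lowest in ZT1 replicates 2 and 3. The coefficient of variation was larger at ZT1 in 27 of 52 members (51.9%), near the 49.6% of genes averaging 100 CPM or more, and its median over members was 9.44% at ZT13 and 11.2% at ZT1. Without ZT1 replicate 3, 13 members had an unadjusted p under 0.05, 11 of them higher and 2 lower at ZT13, and the share over all genes was 11.5% in place of 9.2%. The smallest adjusted p of a member was 0.102, still above the threshold.

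**Figure D3:**
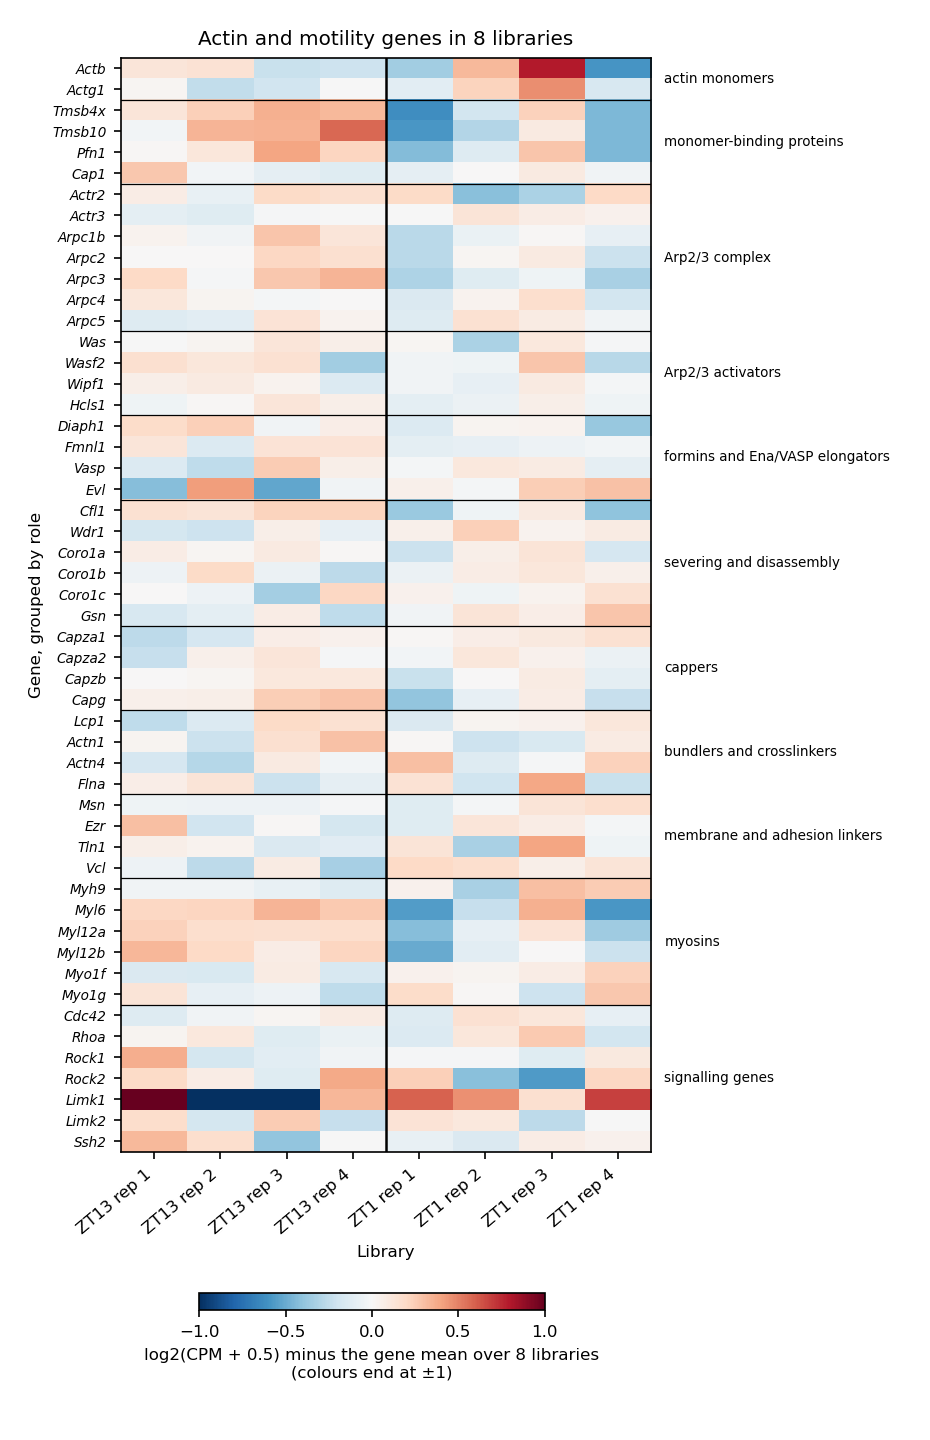
Each member's log2(CPM + 0.5) minus its mean over the 8 libraries, with ZT13 replicates 1 to 4 left and ZT1 replicates 1 to 4 right of the vertical line, grouped by role. Colours end at ±1; the actins are darkest red in ZT1 replicate 3, and the thymosins and light chains are blue in ZT1 replicates 1 and 4.

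A ratio between related genes within a library does not depend on how that library was scaled, so 13 pairs of related members were compared in this way, with an exact two-sided permutation test over the 70 assignments of libraries to groups. In 1 pair, α-actinin-4 over α-actinin-1, the groups did not overlap. The log2 ratio of Actn4 to Actn1 was 1.08, 1.21, 1.21 and 0.956 in ZT13 replicates 1 to 4, against 1.57, 1.36, 1.43 and 1.43 in ZT1 replicates 1 to 4. It averaged 1.12 ± 0.12 at ZT13 and 1.45 ± 0.09 at ZT1 (SD, n = 4 each), a difference of -0.33. The exact p was 0.0286, the smallest that 4 libraries against 4 can give, and 0.371 after Benjamini-Hochberg adjustment over the 13 pairs. Actn4 itself measured 272, 252, 325 and 299.8 CPM at ZT13, against 377, 280.0, 304 and 360.2 CPM at ZT1 (log2 fold change -0.20 ± 0.12), and Actn1 128, 109, 141 and 155 CPM at ZT13, against 127, 109, 113 and 134 CPM at ZT1 (log2 fold change 0.14 ± 0.12). Neither gene alone separated the groups. For the other 12 pairs the exact p lay between 0.171 and 0.771. Among them, the log2 ratio of Actr3 to Actr2 was 1.66, 1.79, 1.63 and 1.68 at ZT13, against 1.64, 2.38, 2.22 and 1.68 at ZT1 (exact p 0.257), again with ZT1 replicates 2 and 3 apart. The ratio of Limk2 to Limk1 was the most variable at ZT13, with log2 ratios of 3.04, 5.07, 7.38 and 3.36 at ZT13, against 3.45, 3.56, 3.51 and 3.20 at ZT1 (exact p 0.4). The log2 ratio of Tmsb10 to Tmsb4x was -6.10 ± 0.17 at ZT13 and -6.21 ± 0.09 at ZT1 (SD; exact p 0.371), with overlapping groups.

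**Figure D4:**
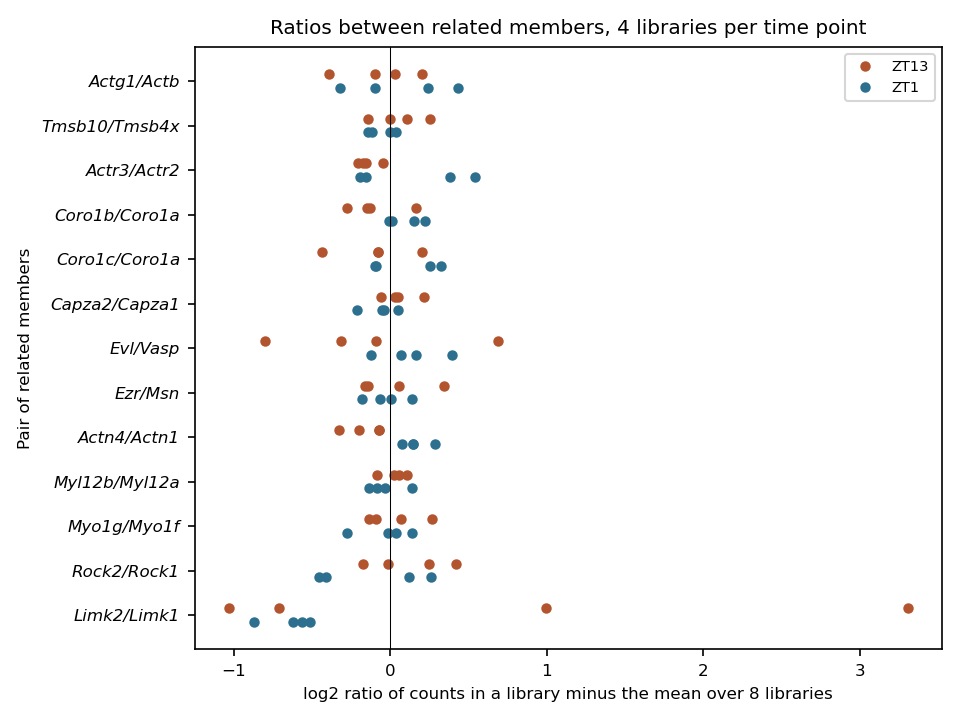
Log2 ratio within each library (points) minus the mean over the 8 libraries, for the 13 pairs of related members, with the 4 ZT13 libraries above the 4 ZT1 libraries in each row. The ratio of Actn4 to Actn1 is the one whose groups do not overlap; the ratios of Actr3 to Actr2 show ZT1 replicates 2 and 3 above all other libraries.

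Coding length moved with these differences, among the members and among all protein-coding genes averaging 100 CPM or more, a set that includes most of the members. The 8 with an unadjusted p under 0.05 have coding sequences of at most 1047 bases, and Vcl and Wdr1, with lower values, of 1818 bases or more. Of the 11 members under 600 coding bases, 8 were higher and 3 lower at ZT13, with a median log2 fold change of 0.34, and 6 (54.5%) were higher with an unadjusted p under 0.05. Among all 209 protein-coding genes of that length averaging 100 CPM or more, 67.0% were higher, with a median of 0.13, and 24.4% were higher with an unadjusted p under 0.05. The 11 members of 600 to 1200 coding bases had a median of 0.11, against 0.00 for 488 such genes, and the 17 of 1200 to 2400 bases a median of -0.02, against -0.08 for 585 genes. The 13 members of 2400 bases or more had a median of -0.07, against -0.11 for 255 genes. Across genes, Spearman's correlation of coding length with log2 fold change was -0.43 over the 52 members and -0.37 over the 1537 protein-coding genes averaging 100 CPM or more; genes of a library are not independent replicates and no p is given. By library, the median deviation of the 11 shortest members from their mean was 0.11, 0.11, 0.16 and 0.21 (log2) in ZT13 replicates 1 to 4, against -0.43, -0.11, 0.14 and -0.32 in ZT1 replicates 1 to 4. Over the 209 short genes averaging 100 CPM or more it was 0.04, 0.07, 0.13 and 0.11 in ZT13 replicates 1 to 4, against -0.27, -0.02, 0.17 and -0.21 in ZT1 replicates 1 to 4, with ZT1 replicates 1 and 4 again lowest. The part of gene length in the differences of single members was not tested.

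**Figure D5:**
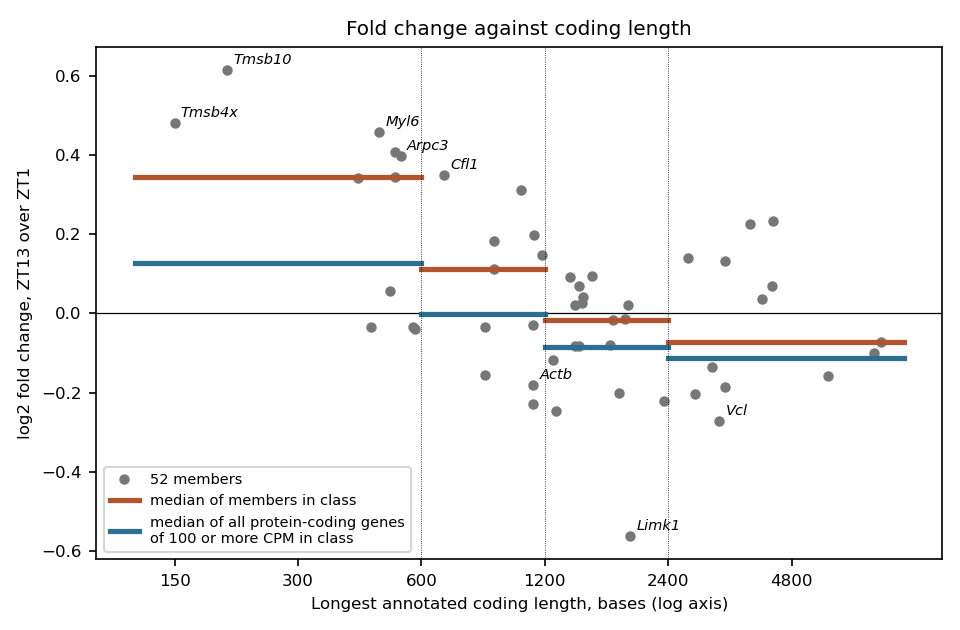
Log2 fold change of ZT13 over ZT1 against coding length in bases (log axis) for the 52 members (grey points), with the median of the members and that of all protein-coding genes averaging 100 CPM or more as lines in each length class. Both medians are highest under 600 bases (0.34 for members, 0.13 for all genes) and lowest at 2400 bases or more (-0.07 and -0.11).

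The rest of the cytoskeletal pathways was read from 12 lists of 192 further gene symbols, some of them an older and a newer name of the same gene. From these lists 153 genes were tested. Of these, 67 (43.8%) were higher and 86 lower at ZT13, with a median log2 fold change of -0.03, and 17 (11.1%) had an unadjusted p under 0.05, 8 higher and 9 lower, near the 9.2% of all genes. None was called by edgeR at an adjusted p of 0.05. The groups did not overlap in 3 genes with higher and 4 with lower values at ZT13 (4.6%), against 5.66% of all genes. Of 5 tested genes for other Arp2/3 subunits and branch regulators, Gmfg, which removes branches in blood cells, measured 272 ± 34.8 CPM at ZT13 and 198 ± 45.2 CPM at ZT1 (log2 fold change 0.46 ± 0.16, adjusted p 0.491). Of 14 WAVE and WASH complex genes, Cyfip1, a WAVE subunit that binds Rac, was lower in every ZT13 library, at 218, 246, 234 and 207 CPM, against 272, 248, 263 and 286 CPM at ZT1 (log2 fold change -0.24 ± 0.09, adjusted p 0.491). Its partner Nckap1l, the WAVE subunit of blood cells, had a log2 fold change of -0.29 ± 0.10 with overlapping groups. In the Rac pathway, with 9 of 20 genes higher and 11 lower, the GTPase gene Rhog was higher in every ZT13 library, at 801, 739.5, 729.5 and 844 CPM, against 547, 692, 720.2 and 594 CPM at ZT1 (adjusted p 0.494). Dock8, an exchange factor gene placed on the same list, measured 275 ± 48.6 CPM at ZT13 and 352 ± 57.9 CPM at ZT1 (log2 fold change -0.36 ± 0.16, adjusted p 0.531). Which GTPase it acts on was not examined here.

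Of the further myosins, Myo1c was lower in every ZT13 library (log2 fold change -0.38 ± 0.15, adjusted p 0.504). Selplg, which encodes the selectin ligand PSGL-1, was the only one of 15 further membrane and adhesion genes without overlap, at 1751, 1808, 1883 and 1863 CPM at ZT13, against 1445, 1605, 1705 and 1578 CPM at ZT1 (log2 fold change 0.21 ± 0.08, adjusted p 0.494). Of 9 tubulin genes 2 were higher and 7 lower, and of 8 septin genes 2 were higher and 6 lower, none with an adjusted p under 0.455. Of 6 tested regulators and targets of SRF and MRTF, 3 were higher and 3 lower, and none had an unadjusted p under 0.05.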

How the data were processed

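Gene-level read counts of 8 libraries, 4 from ZT13 and 4 from ZT1, were analysed as deposited by the authors. STAR 2.7.10b, featureCounts, Subread 2.0.3, DESeq2 1.46.0 and the build GRCm38 are named in the submitters' processing notes. The sources used here do not give the annotation release, the strand setting or the treatment of reads that fit several genes; the library kit does not mark strand, so reads of overlapping genes cannot be told apart. Gene identifiers were matched to symbols and lengths of GENCODE M21 without version numbers: 22231 of 23369 matched, and the 1138 others held 0.121% of counts.

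Genes were kept with filterByExpr (minimum count 10, minimum total 15), scaled by TMM and tested with edgeR 4.0.16 (quasi-likelihood F-test, robust, R 4.3.3) for ZT13 over ZT1, with Benjamini-Hochberg adjustment over 12610 genes and a threshold of 0.05. The fit had 6 residual degrees of freedom and a common biological coefficient of variation of 0.498. CPM values are TMM-scaled. The edgeR standard errors were derived from the log2 fold change and the F statistic of the fit, and the 95% intervals from these with a t quantile. Ratios used exact permutation tests on log2 ratios with a pseudocount of 0.5. Totals of 46152067 counts or more per library limit precision little at these levels; limits from 3 counts cover counting error only. Alternatives were DESeq2 1.42.0, limma-voom (limma 3.58.1) with and without quality weights, other scalings and filters, replicate blocks, and each library left out in turn.

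Values in every library are given for the members with the 12 smallest p, the 4 highest per-length levels and both members of a pair at the smallest exact p; those of Actg1, Actr2, Actr3, Lcp1, Rock2 and Limk1 were added after their values were seen. Of each pathway list at most 3 genes with the smallest p are named. One gene list of the pathways is not reported here by itself. The members and the lists were chosen with earlier results of these data known.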

Additional observations from a re-analysis of the deposited data

Results flagged for a closer look

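Within a group of 4 libraries, a library was singled out when its gap to the nearest other library exceeded the share of the group's range that Dixon's 95% critical value allows. This was tested in 130 groups of 4, covering the members and the pair ratios, and 5 were singled out; chance does so in about 1 in 20. All 5 were single ZT13 libraries. Wasf2, the WAVE2 gene, stood at 57.7 CPM in ZT13 replicate 4, against 79.7 to 82.2 CPM in the other ZT13 libraries. Fmnl1, a formin gene of blood cells, stood at 297 CPM in ZT13 replicate 2, against 356 to 361 CPM in the others. Myo1f, the class I myosin gene, stood at 1644 CPM in ZT13 replicate 3, against 1392 to 1410 CPM in the others. In Msn (moesin) ZT13 replicate 4 stood at 2140 CPM, against 2089 to 2093 CPM, and in Myl12a ZT13 replicate 1 stood at 213 CPM, against 203 to 204 CPM: in these genes the other 3 libraries lay unusually close together.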

How the results depend on the processing

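Of the members, 34 kept the sign of their log2 fold change under all 18 alternatives, and the other 18 changed sign 48 times, 46 times with an estimate within its SE. An exception was Rock1 without ZT13 replicate 1 (-0.0978, against 0.0367 in the fit of all libraries, range over left-out libraries -0.0978 to 0.0949). The other was Actb with a replicate block from the library names (0.216, against -0.18). That block leaves out ZT13 replicate 4 and ZT1 replicate 3, and without ZT1 replicate 3 alone Actb stood at 0.116. The cause of either change was not tested. The number of genes called was 0 under every edgeR and limma alternative and 118 with DESeq2, which called 2 members. With library totals, 16 members had an unadjusted p under 0.05 (9.79% of all genes) and 10 did not overlap (6.33% of all genes). Leaving out each library in turn gave 5 to 13 members at unadjusted p under 0.05 (6.00% to 11.5% of all genes), 5 to 12 without overlap (7.76% to 13.4% of all genes), 26 to 30 with higher values at ZT13, and 1 or 2 pairs of related genes without overlap. Groups of 3 overlap less often by construction. Same-numbered libraries did not deviate together (correlations of 0.0018, -0.0006, -0.0399 and 0.0196 by title, and 0.0018, -0.0006 and 0.0505 by library name). With so few libraries these correlations show no pairing but cannot exclude one. With the replicate block from titles, 9 members had an unadjusted p under 0.05, against 7.71% of all genes. With that from library names (3 pairs), 8 members had such a p, against 9.35% of all genes. No member was called with either block, and 14 members did not overlap in the 3 pairs, where 19.4% of all genes did not. With a floor of 5 CPM in 4 libraries, Limk1 was not tested.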
